A study of Equus caballus with 16 samples.

Results

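The comparison described here set the spring seasons of the mare, spring anovulatory (SAN) and spring ovulatory (SOV), against the seasons that follow them, summer (SUM) and fall ovulatory (FOV). MiRNAs were measured by small RNA sequencing in extracellular vesicles of ovarian follicular fluid (FF-EVs). Its members are 15 of the 16 libraries of the series: SAN_1 to SAN_4 and SOV_1 to SOV_4 on the spring side (n = 8), and SUM_1 to SUM_4 with FOV_2 to FOV_4 on the summer and fall side (n = 7). The fall library FOV_1 was left out, as in the study, which dropped it because it looked like SAN. That choice rests on the measured values, and it took away a fall library judged close to spring. The 2 seasons of a side were given equal weight, and 282 of 686 listed miRNAs with a mean above 10 CPM (TMM-adjusted read counts scaled to a common library total) in at least 1 season were tested. Fluids came from multiparous mares of one breed, 8 to 14 years old and on pasture under natural light, and from follicles of 30 to 35 mm. Collection was in March for SAN, in April and May for SOV, in June and July for SUM and in September for FOV. In every season the follicles grew in a wave that ablation had induced. Each library pooled the fluids of 2 to 3 mares, and mares served in more than 1 season. The labels do not say which mares stand behind a library, so the p-values measure the spread between these pools. Season and calendar time cannot be told apart, since each season was sampled in 1 stretch of months.

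MiRNAs are short RNAs that guide silencing proteins to messenger RNAs, mainly through the seed, the bases 2 to 8 from the 5′ end, and miRNAs with one seed can share targets. In the follicle, vesicles released into the fluid carry miRNAs between the granulosa and theca cells of the wall, the cumulus cells and the oocyte. Fluid that filters in from blood may also bring vesicles of other tissues. The mare breeds with long days, and in early spring she grows large follicles that regress before the first ovulation of the year.

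The mature sequences below, from the study's supplementary list of expressed miRNAs, are those on which the results turn, written as DNA from 5′ to 3′ with the seed in capitals. The first set was higher in spring. MiR-143 and miR-145 are made from one precursor transcript in mammals, and miR-96 and miR-182 belong to one cluster but differ in seed.
miR-143: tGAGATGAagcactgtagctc
miR-145: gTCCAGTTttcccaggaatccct
miR-195: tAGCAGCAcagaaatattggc
miR-182: tTTGGCAAtggtagaactcacactg
miR-96: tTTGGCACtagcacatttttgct
The second set was lower in spring with no overlap between the sides. MiR-409-3p and miR-3958 come from the imprinted DLK1-DIO3 region.
miR-409-3p: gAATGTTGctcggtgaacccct
miR-3958: cAGATATTgcacggttgatctctt
miR-1388: aGGACTGTccaacctgagaatggt
miR-142-3p: tGTAGTGTttcctactttatgga
miR-27a: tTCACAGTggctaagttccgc
miR-92a: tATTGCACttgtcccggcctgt
The third set holds called miRNAs beside a relative with the same seed. The pairs miR-192 and miR-215, and miR-25 and miR-92a (above), were both lower in spring, whereas miR-23b, miR-27a (above) and miR-146a were called without their relatives.
miR-192: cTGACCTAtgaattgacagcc
miR-215: aTGACCTAtgaattgacagac
miR-25: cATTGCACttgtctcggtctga
miR-27b: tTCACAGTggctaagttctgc
miR-23b: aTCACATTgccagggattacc
miR-23a: aTCACATTgccagggatttcc
miR-146a: tGAGAACTgaattccatgggtt
miR-146b-5p: tGAGAACTgaattccataggct

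Reads assigned to miRNAs numbered 36328 to 94216 in spring libraries (median 47139.5) and 27131 to 112146 in summer and fall libraries (median 65120.0), so that 1 read was worth 7.91 to 35.6 CPM. A library had reads for 194 to 225 miRNAs in spring and for 180 to 264 in summer and fall. SUM_1 and SUM_4 stood apart within SUM, with 60987 and 38066 CPM of miR-218, against 399 to 8548 CPM in the other summer and fall libraries. The counts of calls and several list results are also given without these 2 libraries. Of 16 miRNAs listed for granulosa cells and follicles, 15 were among those tested, and miR-21 ranked 4 by mean level.

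Spring FF-EVs had fewer miRNAs above than below summer and fall. Of 282 miRNAs, 8 were called higher in spring (2.84%) and 28 lower (9.93%), by limma on log2(CPM + 1) at a Benjamini-Hochberg adjusted p under 0.05 and a fold change (FC) of at least 2. The miRNAs called higher took 19.9% of the signal in spring libraries, against 7.72% in summer and fall libraries. Most of that signal was miR-143, with a mean of 187548 CPM in spring, 17314 CPM in SUM and 131147 CPM in FOV. Those called lower took 6.47% in spring libraries and 21.0% in summer and fall libraries. These shares are means over libraries, with seasons not weighted. Both sets were picked by direction on the same values, so a gap between the sides follows from the choice. The 8 were miR-96, miR-143, miR-195, miR-28-5p, miR-145, miR-23b, miR-182 and miR-199a-3p, and the 28 are described below. The median log2 FC over all 282 was -0.49 with the deposited scaling and -0.29 with median-of-ratios scaling, under which 13 were called higher and 23 lower. The share of calls that were higher was 36.1% with that scaling and 22.2% with the deposited one, so each log2 FC is to be read against the median. Without SUM_1 and SUM_4 the calls were 21 higher and 22 lower, and the median of all miRNAs was -0.23. Of the 36 calls 27 were kept, and those lost were miR-25, miR-122, miR-191a, miR-215, miR-28-5p, miR-485-3p, miR-485-5p, miR-495 and miR-9021. With FOV_1 kept, the calls were 7 higher and 30 lower, and miR-142-3p and miR-199a-3p were no longer called. In these bulk samples, fewer vesicles or cells of a type and less RNA in each of them cannot be told apart.

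**Figure D1:**
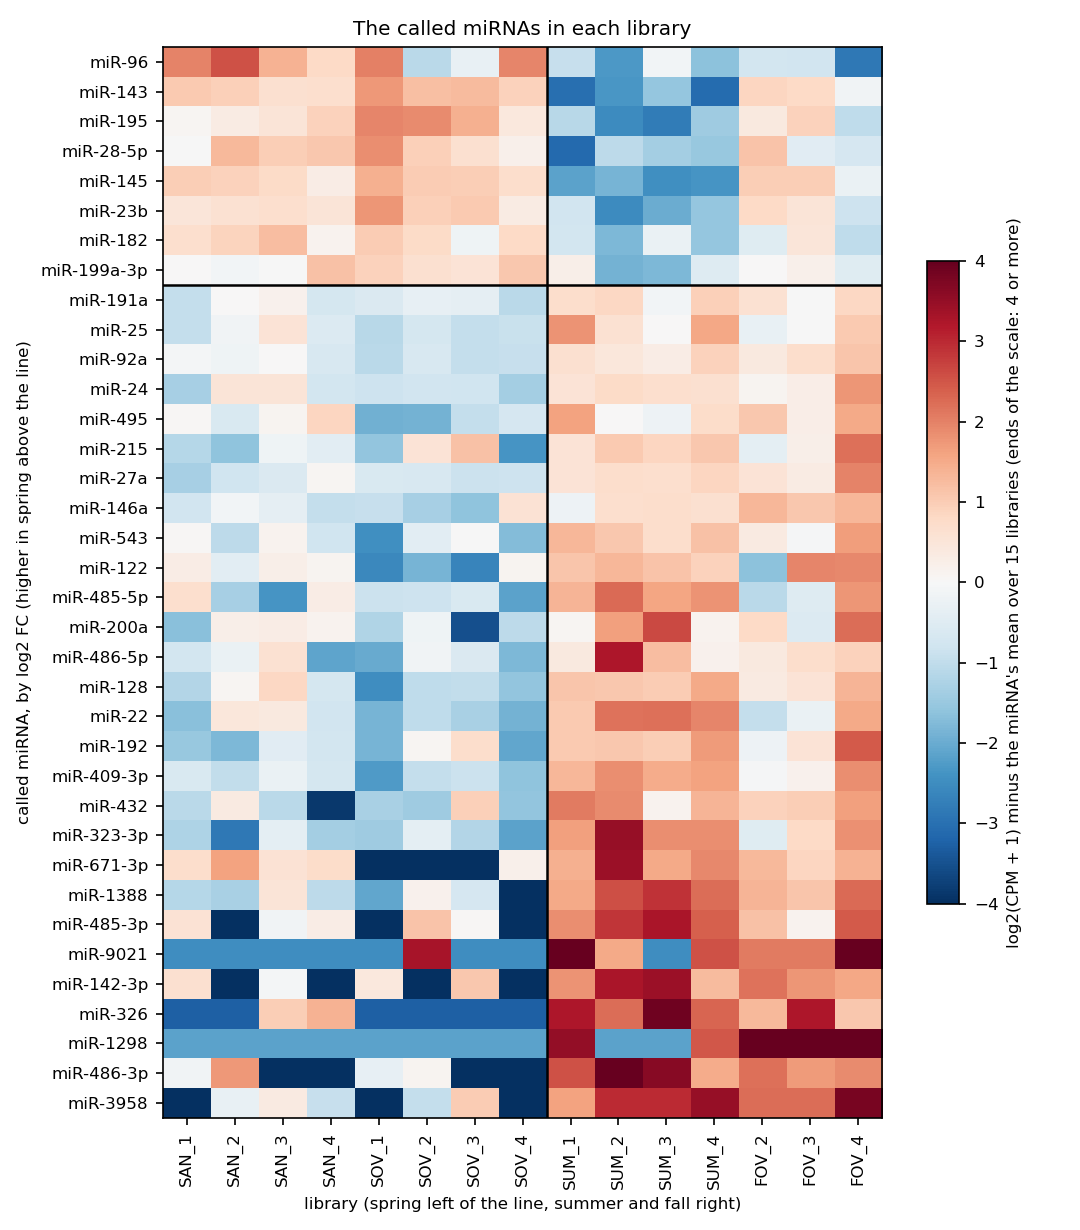
Level of each of the 36 called miRNAs (rows) in each of the 15 libraries (columns, spring left of the line), as log2(CPM + 1) minus the mean of that miRNA over the libraries; colours end at 4 on either side of 0. The 8 miRNAs above the horizontal line were higher in spring, where FOV_2 and FOV_3 often resemble spring more than SUM does, and the 28 below it were lower, with single libraries such as SOV_2 and SOV_3 for miR-215 going against their side.

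The most abundant miRNA among the calls was miR-143, known from smooth muscle and other mesenchymal cells and second by mean level in these data. It had 138473, 175649 and 289954 CPM at the lowest, median and highest spring library, against 10416, 30275 and 161409 CPM in summer and fall. Every spring library lay above the 4 SUM libraries, while FOV_2 and FOV_3 lay within the spring range and FOV_4 below it. The level was 4.12-fold higher in spring (log2 FC 2.04 ± 0.27 SE, adjusted p = 0.000135). MiR-145, its partner in the transcript, had 2170.1, 3397 and 4712 CPM in spring, against 320.6, 488 and 3504 CPM in summer and fall. Its libraries were ordered in the same way, with FOV_2 and FOV_3 inside the spring range and all of SUM below it. MiR-145 was 3.26-fold higher in spring (log2 FC 1.70 ± 0.25, adjusted p = 0.000248). For both, SUM differed from FOV within its own side, by -2.99 for miR-143 and -2.78 for miR-145 on the log2 scale (adjusted p = 9.10e-05 each). Against SUM alone the log2 FC of spring was 3.54 for miR-143 and 3.09 for miR-145, and against FOV alone it was 0.55 (adjusted p = 0.267) and 0.31 (adjusted p = 0.498).

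The other 6 miRNAs higher in spring came from several families. MiR-23b, of the cluster with miR-27b, had 1062, 1328 and 2880 CPM at the lowest, median and highest spring library, against 148, 483 and 1472 CPM in summer and fall (log2 FC 1.56 ± 0.33, adjusted p = 0.00467). As for miR-143, all of SUM lay below spring and FOV overlapped with it, and SUM minus FOV was -1.86 on the log2 scale (adjusted p = 0.0358). MiR-195, which shares the miR-15 and miR-16 seed and is known to repress cell cycle genes, had 272, 427 and 995 CPM in spring, against 35.6, 119 and 491 CPM in summer and fall (log2 FC 1.87 ± 0.43, adjusted p = 0.00788). MiR-96 and miR-182, known from sensory cells and as repressors of FOXO factors, were the called members of their cluster. MiR-182 had 457, 885 and 1200 CPM in spring, against 148, 307 and 714 CPM in summer and fall, with FOV_3 alone reaching into the spring range (log2 FC 1.39 ± 0.35, adjusted p = 0.0114). MiR-96 rested on 87 reads in spring and 15 in summer and fall, with 35.8, 249 and 456 CPM against 9.65, 39.7 and 71.2 CPM (log2 FC 2.52 ± 0.69, adjusted p = 0.0179). SOV_2 and SOV_3 were within the summer and fall range of miR-96, and the other 6 spring libraries above it. The third cluster member, miR-183, had a log2 FC of -0.88 and was not called (adjusted p = 0.0638). MiR-28-5p was 3.36-fold higher in spring (log2 FC 1.75 ± 0.57, adjusted p = 0.0432), with 90.8 to 340 CPM against 9.91 to 204 CPM. MiR-199a-3p, a mesenchymal miRNA, was 2.09-fold higher (log2 FC 1.07 ± 0.32, adjusted p = 0.0281), with 4752 to 11525 CPM against 1390.1 to 6088 CPM. These last 2 calls were lost without any of several single libraries.

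**Figure D2:**
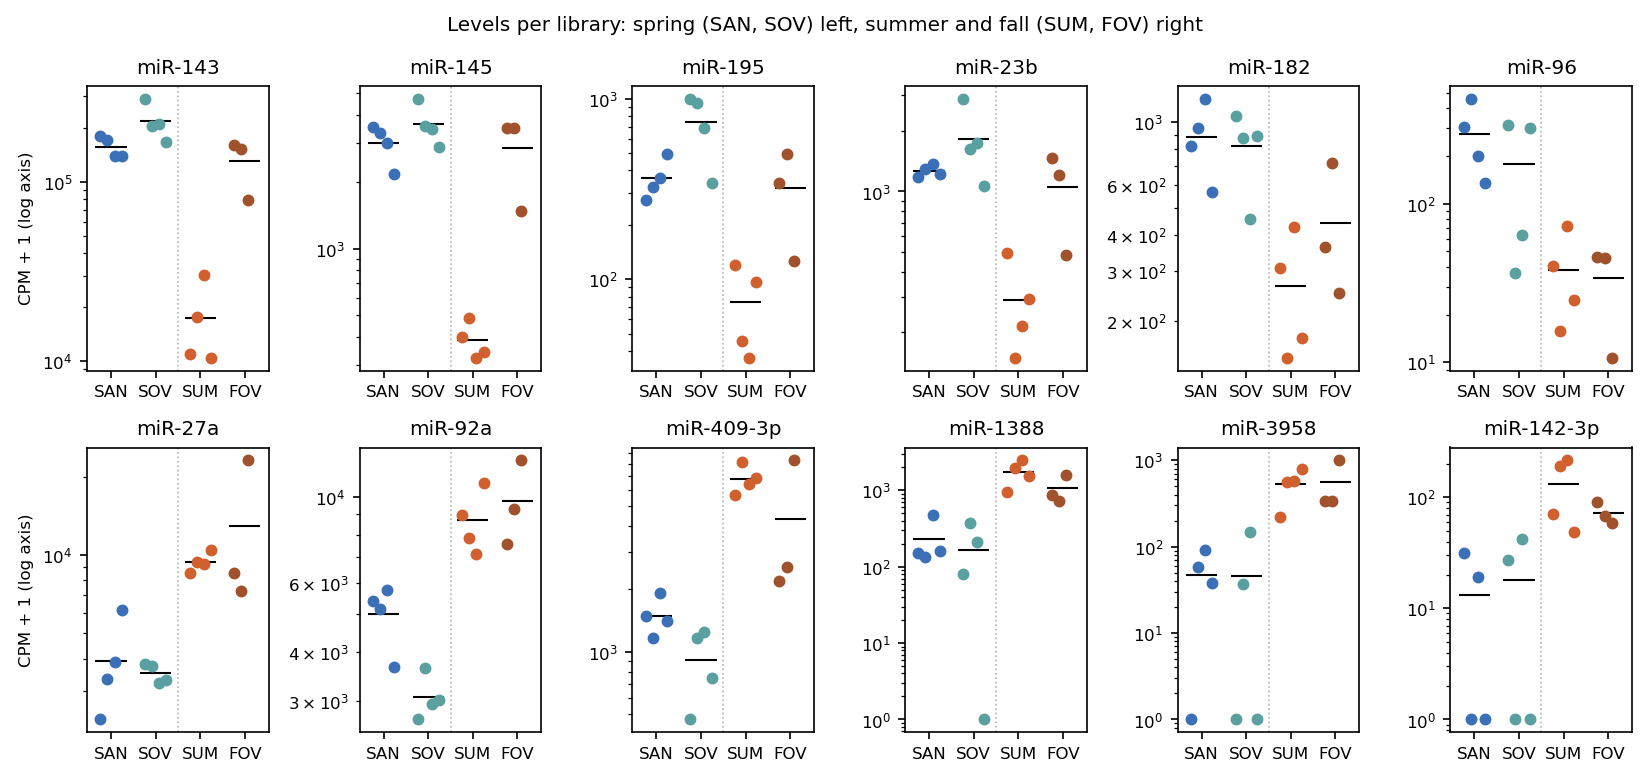
Levels of 12 called miRNAs by season, on a log axis of CPM + 1, with 1 point per library and a bar at the mean of the season. In the upper row, SUM lies below both spring seasons for miR-143, miR-145, miR-195 and miR-23b while FOV overlaps with them. In the lower row, every spring library lies below every SUM and FOV library shown. FOV_1 is not shown.

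Few miRNAs separated the sides completely. Every spring library was above every summer and fall library for 2 of the 282 (0.709%) and below every one for 7 (2.48%). The 2 were let-7a and let-7f, whose FC stayed under 2, and the 7 were the called miR-3958, miR-142-3p, miR-1388, miR-409-3p, miR-27a and miR-92a, with miR-194, which was not called. With FOV_1 kept, the counts were 1 above and 5 below. FOV_1 lay within the spring range of miR-92a, at 3983 CPM, and of miR-142-3p, at 0 CPM. MiR-27a, of the miR-23a cluster, had 2331, 3544 and 6130.2 CPM at the lowest, median and highest spring library, against 7276, 9261 and 23122 CPM in summer and fall. It was 2.86-fold lower in spring (log2 FC -1.52 ± 0.26, adjusted p = 0.000814). MiR-92a, a product of the miR-17 cluster, had 2696, 3659 and 5761 CPM in spring, against 7124, 8963 and 12362 CPM in summer and fall (log2 FC -1.22 ± 0.20, adjusted p = 0.000687). SUM minus FOV was -0.26 for miR-27a and -0.15 for miR-92a on the log2 scale, and neither passed the threshold (adjusted p = 0.791 and 0.850). MiR-1388 had 0, 155 and 473 CPM in spring and 714, 1550.2 and 2458 CPM in summer and fall, with a log2 FC of -3.68 ± 0.91 (adjusted p = 0.0109). SOV_4 alone had no read of miR-1388, and the other spring libraries had 3 to 26 reads. Without SOV_4 the log2 FC of miR-1388 was -2.74 (adjusted p = 0.000903).

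The largest group of lower miRNAs came from the DLK1-DIO3 region, an imprinted cluster that is expressed from the maternal allele in mammals and is known from placenta and brain. Of 45 listed members 38 passed the filter. Among them 8 were called lower in spring and none higher, beside 9.93% and 2.84% over all miRNAs tested. A negative log2 FC was found for 33 of the 38, as for 179 of all 282. The median was -1.34, beside -0.49 over all miRNAs tested. MiR-154a and miR-3959, among the 38, were at 0 CPM in every spring library. They passed the filter only through the later seasons, so their sign was fixed by it. Other members also lay near the floor, and all of them enter the count and the median. MiR-409-3p carried most of the reads of the called members, 507 in spring and 3247 in summer and fall. It had 471, 1205 and 1908 CPM at the lowest, median and highest spring library, against 2197, 6376 and 8309 CPM in summer and fall (log2 FC -2.15 ± 0.30, adjusted p = 0.000213). MiR-323-3p had 38.0, 116 and 218 CPM in spring, against 204, 1023 and 3224 CPM in summer and fall (log2 FC -2.84 ± 0.49, adjusted p = 0.000754). Only FOV_2 reached into its spring range. MiR-3958 had a log2 FC of -5.17 ± 1.16 (adjusted p = 0.00618), with 0, 36.3 and 145 CPM in spring, against 218, 562 and 994 CPM in summer and fall. No read of miR-3958 was found in SAN_1, SOV_1 or SOV_4, so that its log2 FC depends on the pseudocount and lay between -5.93 and -3.36 over the alternatives run. MiR-543 (log2 FC -1.64), miR-432 (-2.40), miR-495 (-1.39), miR-485-5p (-1.81) and miR-485-3p (-3.69) made up the 8, with adjusted p between 0.00814 and 0.0386. Other members were not called: miR-127, the member with the highest level after miR-409-3p, had 1423 to 5177 CPM in spring and 1995 to 4545 CPM in summer and fall, a log2 FC of -0.10 (adjusted p = 0.833). The summed level of the region was 4974 to 13170.2 CPM in spring libraries and 12320.4 to 26808 CPM in summer and fall libraries. Without SUM_1 and SUM_4, 5 members were called lower and 1 higher.

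MiR-192 and miR-215 have one seed and are induced by p53 in human cells, and both fell in spring. MiR-192 ranked 5 by mean level, with 5566, 11235 and 38009 CPM at the lowest, median and highest spring library, against 20405, 49000 and 130169 CPM in summer and fall. The log2 FC was -2.02 ± 0.44 (adjusted p = 0.00533). The sides overlapped through SOV_2 and SOV_3, which had 24978 and 38009 CPM. MiR-215 was 2.77-fold lower in spring, with 2146, 6556 and 24779 CPM against 8380, 19697 and 49842 CPM (log2 FC -1.47 ± 0.48, adjusted p = 0.0471), and the same spring libraries were the highest. MiR-194, which lies beside both in the mammalian genome, had 0 to 114 CPM in spring, against 134 to 743 CPM in summer and fall. It did not overlap between sides, but its log2 FC of -2.64 ± 0.90 missed the threshold (adjusted p = 0.0566). Median-of-ratios scaling left 1 call of these 3, and equal totals gave 3. The call of miR-215 was kept in 16 of the 36 alternatives run. MiR-192 and miR-215 differ only at the first base and near the 3′ end. How the authors assigned reads between such relatives is not given in the sources used here.

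Other seeds held called and uncalled miRNAs side by side. Of 5 miRNAs with the seed of miR-25 and miR-92a, these 2 were lower in spring, and miR-32, miR-363 and miR-92b, with log2 FC of -1.78, -2.37 and -0.53, were not called. MiR-25 had 1361, 1692 and 4253 CPM in spring, against 2355, 4496 and 10084 CPM in summer and fall (log2 FC -1.21 ± 0.31, adjusted p = 0.0121), with SUM_1 and SUM_4 as the highest libraries. Among the 5 miRNAs of the miR-23a and miR-23b clusters the direction was mixed. MiR-23b rose in spring, miR-27a fell, and miR-24 fell to 3909, 5831 and 14376 CPM at the lowest, median and highest spring library, against 10667, 15581 and 34007 CPM in summer and fall (log2 FC -1.27 ± 0.31, adjusted p = 0.0109). The relatives miR-27b and miR-23a had log2 FC of 0.12 (adjusted p = 0.681) and 0.54 (adjusted p = 0.193). Since miR-27a and miR-27b, and miR-23a and miR-23b, differ only near the 3′ end, reads could be split between them, and how the authors assigned such reads is not given in the sources used here. MiR-146a, which NF-kB induces, was 2.90-fold lower in spring (log2 FC -1.53 ± 0.30, adjusted p = 0.00271), with 810.0 to 3696 CPM against 2152 to 6273 CPM. MiR-146b-5p, with the same seed, had a log2 FC of 0.30 (adjusted p = 0.588). Among 6 miRNAs with the seed of miR-195, miR-195 alone was called, and miR-16 and miR-497 had log2 FC of -0.25 and 2.34 (adjusted p = 0.591 and 0.0638). Without SUM_1 and SUM_4, 2 of the 7 miRNAs listed for the miR-15 and miR-16 family were called higher. The differences between such relatives were not tested. In all, the 36 called miRNAs had 34 distinct seeds.

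**Figure D3:**
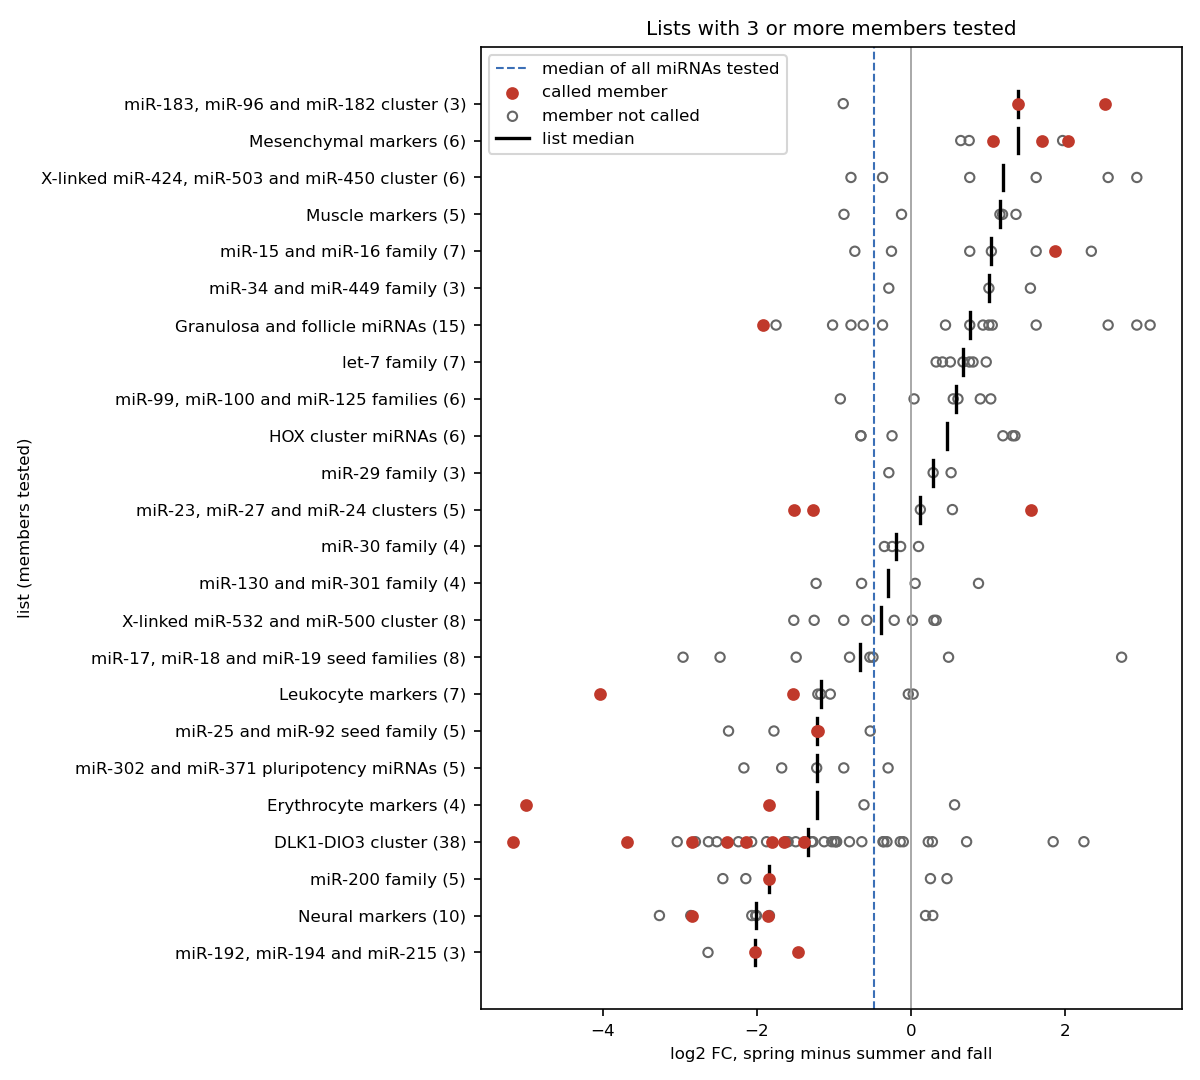
Log2 FC, spring minus summer and fall, of the tested members of each list with at least 3 of them, with called members filled and a bar at the median of the list. The dashed line is the median of all 282 miRNAs, -0.49. Since a call needs an FC of at least 2, called members cannot lie near 0. All called members of the DLK1-DIO3 cluster were lower in spring, and all called mesenchymal markers were higher.

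MiRNAs known as markers of blood cells were among those lower in spring. MiR-486-5p, of red cells and muscle, had 1667, 4553 and 10905 CPM at the lowest, median and highest spring library, against 8099, 11495 and 67154 CPM in summer and fall (log2 FC -1.84 ± 0.46, adjusted p = 0.0114). Its partner strand miR-486-3p had 10 reads in spring and 177 in summer and fall, 0 to 114 CPM against 94.9 to 1597 CPM (log2 FC -5.00 ± 1.23, adjusted p = 0.0109). With 4 spring libraries at 0, the log2 FC of miR-486-3p was -6.01 at a pseudocount of 0.25 CPM and -2.71 at 20 CPM. The other erythrocyte markers were not called: miR-451 had 2202 to 11407 CPM in spring and 395 to 17432 CPM in summer and fall (log2 FC 0.57, adjusted p = 0.461), and miR-144 was at 0 in most libraries. Thus 2 of 4 erythrocyte markers were called, both lower, beside 9.93% called lower over all miRNAs. These 2 are strands of the same precursor, so they do not count as separate markers of red cells. The sum of the 4 was 6979 to 14558 CPM in spring libraries, against 8589 to 73542 CPM in summer and fall libraries. Of 7 leukocyte markers, miR-142-3p and miR-146a were called lower in spring, beside the same 9.93% over all miRNAs. With FOV_1 kept, 1 of the 7 was called. MiR-142-5p, the other strand of miR-142-3p, was not called. MiR-142-3p, made in all blood lineages, had 0, 9.09 and 41.5 CPM in spring, against 47.5, 69.4 and 213.7 CPM in summer and fall (log2 FC -4.04 ± 1.16, adjusted p = 0.0223), from 5 and 45 reads. MiR-223 and miR-150, of myeloid cells and lymphocytes, had log2 FC of -1.21 and -1.05 and were not called (adjusted p = 0.383 and 0.461). MiR-155 and miR-342-3p, also of leukocytes, had log2 FC of 0.03 and -0.04, above the median of all miRNAs (adjusted p = 0.969 and 0.945). The leukocyte sum was 1576 to 5034 CPM in spring libraries and 3351 to 7324 CPM in summer and fall libraries. The study kept only fluids clear of visible blood and removed cells by centrifugation and filtration. What part blood cell RNA had in any of these differences was not tested.

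Markers of other tissues moved in both directions. MiR-122, made by hepatocytes, was 3.43-fold lower in spring, with 602, 3461 and 4663 CPM at the lowest, median and highest library, against 1200.3, 8406 and 14664 CPM in summer and fall (log2 FC -1.78 ± 0.49, adjusted p = 0.0190). FOV_2 held the 1200.3 CPM, and the other 6 summer and fall libraries were above every spring library. Without FOV_2 the log2 FC of miR-122 was -2.38, and without FOV_3 or FOV_4 miR-122 was not called. MiR-128, known from neurons, had 1492, 4179 and 14794 CPM in spring, against 10848, 17864 and 24107 CPM in summer and fall (log2 FC -1.85 ± 0.31, adjusted p = 0.000687), and SAN_3 alone overlapped. It and miR-323-3p were the 2 of 10 neural markers that were called, both lower, beside 9.93% called lower over all miRNAs. MiR-9a, the neural marker with the highest level after miR-128, had a log2 FC of 0.28 (adjusted p = 0.875). MiR-124 was at 0 in 5 of 8 spring libraries. The summed neural level was 4503 to 31699 CPM in spring libraries and 18450.0 to 39937 CPM in summer and fall libraries. Mesenchymal markers went the other way: 3 of 6 were called higher in spring, beside 2.84% over all miRNAs. All 6 had a positive log2 FC, as did 103 of all 282, and the median of the 6 was 1.38. The 3 called were miR-143 and miR-145, which share a transcript, and miR-199a-3p. Without SUM_1 and SUM_4, 4 of the 6 were called higher, and with equal totals or with FOV_1 kept 2 of the 6 were. The sum of the mesenchymal markers, 151377 to 309483 CPM in spring libraries and 17424 to 173548 CPM in summer and fall libraries, was mostly miR-143. Of 5 muscle markers none was called, with miR-1 at 3364 to 48382 CPM in spring and 593 to 14461 CPM in summer and fall (log2 FC 1.36, adjusted p = 0.135). In the epithelial miR-200 family, miR-200a was the only member called, with 41.5 to 600 CPM against 335 to 3028 CPM (log2 FC -1.84 ± 0.57, adjusted p = 0.0347), a call that median-of-ratios scaling ended. MiR-141 and miR-429 of this family had log2 FC of -2.15 and -2.44 and missed the threshold (adjusted p = 0.128 and 0.0692), and miR-200b and miR-200c had 0.47 and 0.25. The part of any other tissue in these values was not tested.

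MiRNAs known from granulosa cells and follicles were also measured. Of the 15 tested, miR-22 was lower in spring and none higher, beside the 9.93% and 2.84% called in each direction over all miRNAs, 9 had a positive log2 FC, and the median was 0.76. Without SUM_1 and SUM_4, 2 of the 15 were called higher and 1 lower, and the median was 1.24. MiR-22 had 1190 to 6006 CPM in spring, with a median of 1957 CPM, against 2242 to 20302 CPM in summer and fall, with a median of 12574 CPM (log2 FC -1.93 ± 0.39, adjusted p = 0.00274). FOV_2 and FOV_3 lay within the spring range. MiR-21, which the LH surge induces in mouse granulosa cells, had 34455 to 170946 CPM in spring and 31320.0 to 210821 CPM in summer and fall (log2 FC 0.45, adjusted p = 0.482). MiR-378, which represses aromatase in porcine granulosa cells, and miR-224 had log2 FC of -0.62 and 3.10 and were not called (adjusted p = 0.179 and 0.0777).

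A few calls rested on very few reads, and the log2 FC of those with spring libraries at 0, miR-142-3p, miR-485-3p and miR-671-3p included, moved by more than 1.5-fold with the pseudocount. MiR-1298 had no read in any spring library and 37 reads in summer and fall, of which FOV_2, FOV_3 and FOV_4 held 8, 12 and 9. With 3 reads over the spring side as a floor, 7.29 CPM, it was at least 13.5-fold lower in spring, and its fitted log2 FC depends on the pseudocount. MiR-326 and miR-9021 had 3 reads each in spring and 29 and 27 in summer and fall. The ratio of spring to summer and fall was 0.13 (exact 95% counting interval 0.0253 to 0.418) for miR-326 and 0.139 (0.0270 to 0.452) for miR-9021. Such intervals cover counting error only. These 2 and miR-191a complete the 36. MiR-671-3p was lower in spring (log2 FC -3.10 ± 0.90, adjusted p = 0.0236), with 0 to 114 CPM against 67.0 to 399 CPM. It was at 0 in SOV_1, SOV_2 and SOV_3, while SAN had 54.5 to 114 CPM. MiR-191a, well covered, was 2.01-fold lower in spring (log2 FC -1.01 ± 0.26, adjusted p = 0.0114), with 1614 to 3835 CPM against 3134 to 6509 CPM.

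The let-7 family, which restrains growth and promotes differentiation, had no called member, but all 7 had a positive log2 FC under every scaling. The median was 0.67, beside -0.49 over all 282 miRNAs, of which 103 had a positive log2 FC with the deposited scaling. Of these, let-7a, let-7c and let-7f passed the adjusted p without reaching an FC of 2. Let-7a had 16294 to 25208 CPM in spring, against 10760 to 13749 CPM in summer and fall (log2 FC 0.67 ± 0.18, adjusted p = 0.0151). Let-7f had 15567 to 26022 CPM in spring, against 7874 to 15512 CPM in summer and fall (log2 FC 0.81 ± 0.21, adjusted p = 0.0114). The abundant miR-99a and miR-26a also passed the adjusted p at an FC under 2, with log2 FC of 0.90 (adjusted p = 0.0190) and 0.86 (adjusted p = 0.0114). MiR-125a-5p and miR-532-5p did so in the other direction, with log2 FC of -0.92 and -0.87. The most abundant miRNA, miR-148a, had 75313 to 282319 CPM in spring and 105379 to 229164 CPM in summer and fall, and was not called (log2 FC -0.20, adjusted p = 0.680).

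How far each season carried the contrast was read from the same values. Both spring means lay above both later means for all 8 miRNAs called higher, and below both for all 28 called lower. Over all 282 miRNAs this held for 40 and 92. The calls were picked by the contrast of these same seasons, so this ordering is largely built in and is no separate support. Between SAN and SOV no miRNA passed an adjusted p of 0.05 by limma (0%), with 31 at an unadjusted p under 0.05. Between SUM and FOV 10 passed (3.55%), among them 3 of the called miRNAs, miR-143, miR-145 and miR-23b. With SUM alone as the later season 28 of the 36 calls were kept, and with FOV alone, which has 3 libraries, 3 were kept: miR-1298, miR-146a and miR-92a. With SOV alone as the spring season 25 were kept, and with SAN alone 12. No call changed its sign in any of these. For miR-1298 the level was carried by FOV, with 181, 268 and 86.9 CPM, against 49.6, 0, 0 and 23.7 CPM in SUM, and spring minus SUM was not called (adjusted p = 0.0901).

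**Figure D4:**
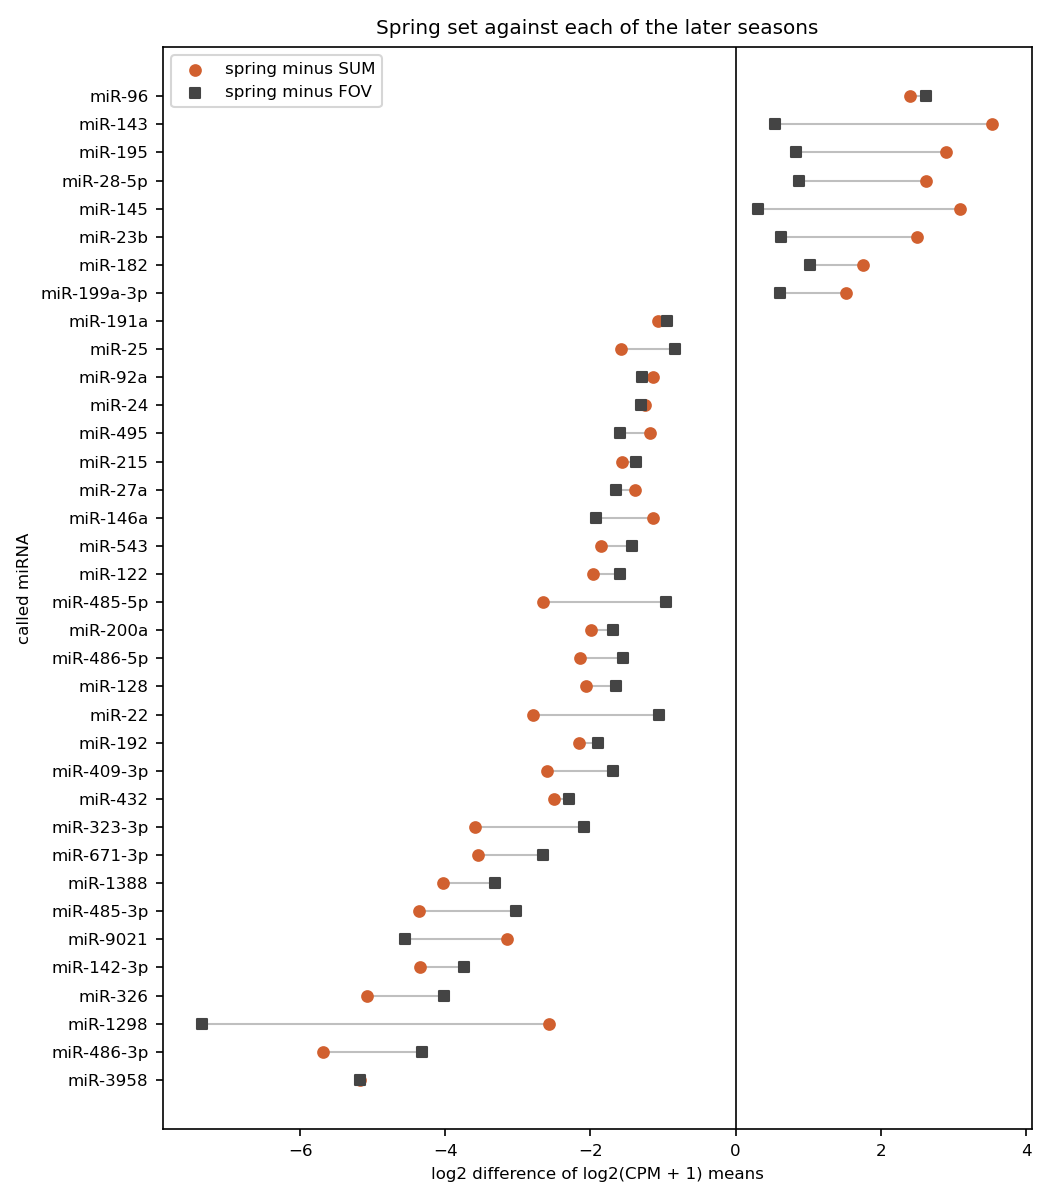
For each called miRNA, the difference of mean log2(CPM + 1) between the spring set and SUM (circle) and between the spring set and FOV (square). All points of a miRNA lie on one side of 0; miR-143 is at 3.54 against SUM and 0.55 against FOV, whereas miR-3958 has nearly the same value against both.

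Spring libraries were also more concentrated on their leading miRNAs. The 6 highest miRNAs of a library took 55.4 to 69.4% of its signal in spring (median 65.3%) and 48.9 to 55.6% in summer and fall (median 54.3%). The means were 63.7% ± 4.84 (SD, n = 8) and 53.4% ± 2.32 (SD, n = 7), a difference of 10.3 percentage points (exact two-sided permutation test over 6435 splits, p = 0.00109, adjusted p = 0.00155 over the 2 shares). For the shares, each library rather than each season had equal weight. The splits took libraries as exchangeable across seasons, and the shares were not tested with seasons as units. Only SAN_3 fell within the summer and fall range. The 20 highest took 87.2% ± 2.59 in spring (SD, n = 8) and 80.7% ± 2.31 in summer and fall (SD, n = 7), a difference of 6.52 percentage points (exact p = 0.00155). When miR-143 was left out of every library, the differences were 6.88 (exact p = 0.0162) and 4.91 (exact p = 0.0103) percentage points. With FOV_1 kept they were 8.73 (exact p = 0.00528) and 5.63 (exact p = 0.00311) percentage points.

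**Figure D5:**
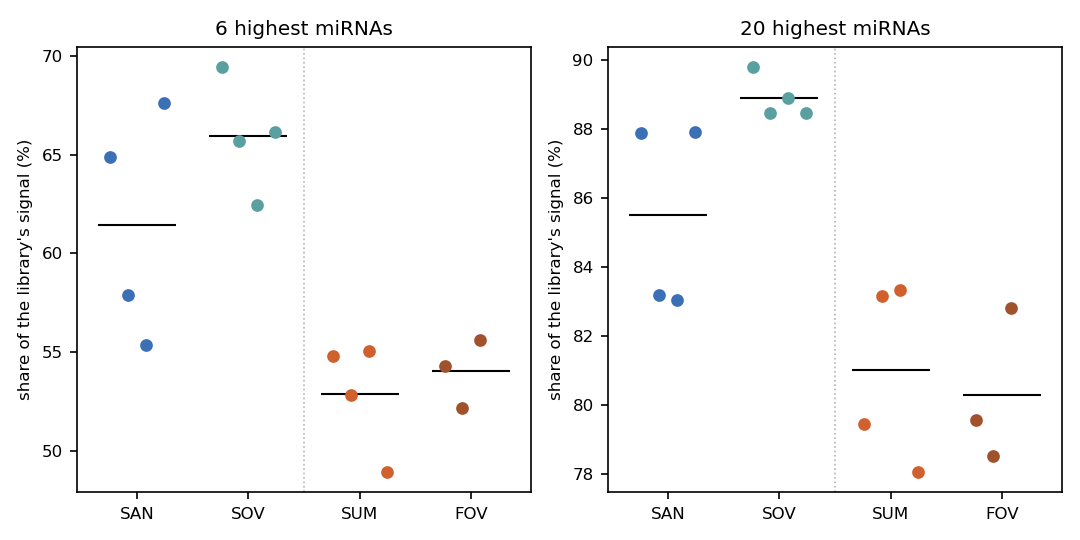
Share of a library's signal taken by its 6 highest (left) and 20 highest (right) miRNAs, in percent, with 1 point per library and a bar at the season mean; the axes do not start at 0. All SOV libraries lie above all SUM and FOV libraries in both panels, and SAN_2 and SAN_3 are the lowest of the spring libraries.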

How the data were processed

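Small RNA libraries (TruSeq) of FF-EVs isolated by ultracentrifugation were sequenced as single reads of 50 bases. The deposited values are a signal, TMM-adjusted CPM, which the study describes as made by the authors in CLC Genomics Workbench with miRBase 22 and EquCab3.0, while the submitters' processing notes name bcl2fastq, Bowtie2 2.2.2 and DESeq2. Which of them made the values was not settled here. Whole reads were recovered for 100% of values (tolerance 1e-06 reads).

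Season means were fitted on log2(CPM + 1) with limma 3.58.1 (R 4.3.3, variance trend), in 1 model of 15 libraries. The contrast was the mean of SAN and SOV minus the mean of SUM and FOV, and every adjusted p is a two-sided Benjamini-Hochberg value over 282 miRNAs unless an exact test is named. Replicates were separate pools of fluids. Alternatives were other pseudocounts, filters and scalings, a replicate block, season means as units, robust moderation, each library or season left out, edgeR 4.0.16 (quasi-likelihood, 49 calls) and DESeq2 1.42.0 (50 calls) on the recovered reads. Leaving out miR-143 or SUM_1 and SUM_4 for the shares, and leaving out each library or SUM_1 and SUM_4 for the miRNAs without overlap, were chosen after seeing the data. Code was tested on simulated data, and figures were drawn with matplotlib 3.10.9.

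The members, the 33 lists and the tests were chosen with earlier results of these data known. MiRNAs were named by a rule: the 12 largest differences in each direction among calls above 100 CPM, calls without overlap, the 10 most abundant, called members of lists or their 2 most abundant, and calls that differed within a side. MiR-326, miR-9021, miR-191a and further uncalled relatives were chosen after their values were seen. No genome was used here, so no coordinates are given.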

Additional observations from a re-analysis of the deposited data

Results flagged for a closer look

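In the 76 groups of called miRNAs and shares that were searched for a library far from the rest of its side, chance alone marks about 1 in 20 groups. Among the miRNAs lower in spring, miR-122 was at 1200.3 CPM in FOV_2, with the next summer and fall library at 7181 CPM, and miR-1388 was at 0 CPM in SOV_4, with the next spring library at 78.5 CPM. FOV_4 was far above the other summer and fall libraries for miR-24, at 34007 CPM (next 16859 CPM), and for miR-27a, at 23122 CPM (next 10495 CPM). SUM_2 was far above them for miR-486-5p, at 67154 CPM (next 16847 CPM), and for miR-671-3p, at 399 CPM (next 142 CPM). MiR-9021 had 53.7 CPM in SOV_2 and no read in any other spring library, and in SUM_3 it was at 0 CPM, with the next summer and fall library at 14.8 CPM.

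Spring differed from SUM by more than from FOV for 3 called miRNAs, by a test of SUM minus FOV in the same limma fit. That difference was -2.99 for miR-143 and -2.78 for miR-145 (adjusted p = 9.10e-05 each), and -1.86 for miR-23b (adjusted p = 0.0358), on the log2 scale.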

How the results depend on the processing

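No call changed its sign in any of 36 alternatives, and 25 of the 36 calls were kept with every single library left out, though none was kept in all 36 alternatives. With single libraries left out, calls numbered 28 to 39, those higher in spring 6 to 11 and those lower 22 to 31, miRNAs without overlap 2 to 3 above and 7 to 9 below, and the differences of the shares 9.49 to 11.5 and 6.07 to 7.11 percentage points. With season means as units 15 were called, 1 higher and 14 lower. With SAN as the only spring season 13 were called, 4 higher and 9 lower. Against FOV alone 4 were called, 0 higher and 4 lower, with 65 at an unadjusted p under 0.05, and against SUM alone 20 were higher. Those higher numbered 13 with median-of-ratios scaling, 13 with no FC threshold and 21 without SUM_1 and SUM_4. MiRNAs without overlap numbered 1 above and 5 below with FOV_1 kept, and 0 above and 8 below with equal totals. The causes of these changes were not tested. Same-numbered libraries did not deviate together (correlation -0.27 to 0.27 over 21 pairs, 5 of 15 libraries best with their own number). Such correlations cannot show whether pools of the same number shared mares, which the labels do not say. A replicate block gave 35 calls, 9 higher and 26 lower. The 11 calls lost when single libraries were left out were miR-122 (FOV_3 or FOV_4, adjusted p up to 0.0833), miR-671-3p (SUM_2 or FOV_4, up to 0.0543), miR-485-5p (SAN_2, SAN_3, SOV_1, SOV_4, SUM_2, SUM_4 or FOV_4, up to 0.110), miR-495 (SAN_2, SOV_1, SOV_2, SUM_1, SUM_4, FOV_2 or FOV_4, up to 0.0934), miR-9021 (SOV_1, SOV_3, SOV_4, SUM_1, SUM_4 or FOV_4, up to 0.0778), miR-199a-3p (SAN_4, SOV_1, SOV_4, SUM_2, SUM_3 or FOV_4, up to 0.0849), miR-200a (9 libraries, up to 0.119), miR-28-5p (9 libraries, up to 0.0966), miR-485-3p (10 libraries, up to 0.108), miR-215 (11 libraries, up to 0.154), and miR-191a, whose FC fell under 2 without 8 of the libraries. At 1 read per 7.91 to 35.6 CPM, miRNAs near 10 CPM lie at or below 1 read in most libraries, and for them no difference could be detected at this depth.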

Other observations

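FOV_1, which was used only where its effect on the calls and shares is given, was compared with the mean level of each side. On the log scale, with seasons weighted equally, it was nearer to the spring mean for 17 of the 36 called miRNAs. It was nearer to the summer and fall mean for 19. It had 272479 CPM of miR-143 and 3946 CPM of miR-145, within the spring ranges, and 9007 CPM of miR-27a, within the summer and fall range. Its 6 highest miRNAs took 66.1% of its signal.

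Among miRNAs outside the calls, the X-linked cluster with miR-424, miR-503 and miR-450 had no called member of 6, with a median log2 FC of 1.19, and miR-542-3p of this cluster had 41.5 to 145 CPM in spring and 0 to 113 CPM in summer and fall (log2 FC 2.56, adjusted p = 0.0731). Without SUM_1 and SUM_4, 1 member of this cluster was called higher, and the median was 1.71. None of 8 miRNAs with the seeds of miR-17, miR-18 and miR-19 was called. Their median log2 FC was -0.67, and 0.35 without SUM_1 and SUM_4, where 1 of the 8 was called higher. MiR-7 was high in SUM_1 and SUM_4 alone, with 39848 and 25436 CPM, against 1013 to 3785 CPM in all other libraries. MiR-218 was high in the same libraries and also had 3329 to 8548 CPM in FOV_2 to FOV_4, against 1018 to 1614 CPM in spring (log2 FC -1.98, adjusted p = 0.125). Of 5 miRNAs of the miR-302 and miR-371 clusters, known from pluripotent cells, none was called, and miR-302c, miR-302d and miR-371-5p had no read in any spring library.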
